A study of Homo sapiens with 12 samples.

Results

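The insulin-like growth factor (IGF) system is described here in SaOS-2, an established human osteosarcoma cell line, and in clones of it labelled Sa/CD99. The family was given by 10 genes: the ligands IGF1 and IGF2, the receptors IGF1R and IGF2R, and the binding proteins IGFBP2, IGFBP3, IGFBP4, IGFBP5, IGFBP6 and IGFBP7. A member was measured by the probe sets of the array that named it alone, and the probe set with the highest mean over the 12 arrays stood for the gene. This gave 9 of the 10 members a value, out of 19775 genes with such a probe set. IGF2 had none, because its 3 probe sets also named INS-IGF2, and it is given no value. The RefSeq gene annotation places IGF1 and IGFBP6 on chromosome 12, IGF1R on 15 and IGF2R on 6. It places IGFBP2 and IGFBP5 on chromosome 2, IGFBP3 on 7, IGFBP4 on 17 and IGFBP7 on 4.

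IGF1 and IGF2 are secreted growth factors that act on osteoblasts and are stored in bone matrix. They signal through the receptor tyrosine kinase IGF1R, whereas IGF2R takes up IGF2 and carries it to lysosomes. The binding proteins are secreted and hold IGFs outside the cell, and proteases such as the pappalysins cut some of them and free the ligand. IGFBP7 binds IGFs only weakly and is often set apart from the others.

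The arrays labelled Sa/CD99 came from the clones wt22 and wt36, which were stably transfected with CD99, a cell surface glycoprotein, and selected with neomycin. The parental SaOS-2 cells came with array numbers 1 and 2. Cells were taken at day 0, before the change of medium, and after 7 and 14 days in a low-serum medium supplemented with ascorbic acid and β-glycerophosphate, which drives osteoblast differentiation. Each of the 6 groups held 2 arrays, so that a group of the arrays labelled Sa/CD99 held 1 array per clone and its spread was a spread between clones. Transfection, selection and growth from a single clone cannot be told apart from CD99 in a comparison with parental cells. No group of days 7 and 14 was kept in growth medium. Differentiation, lower serum and time in culture therefore cannot be told apart in a comparison of days. Nothing in the labels tells whether both parental arrays of a day were grown as separate cultures, and the p-values then reflect only how far these samples varied, which can be technical variation.

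CD99 itself was not called higher in the arrays labelled Sa/CD99. The probe set with the highest mean read 12.32 to 12.74 on the log2 scale in these arrays, against 12.29 to 12.66 in SaOS-2 arrays. Within each day both clones lay above both SaOS-2 arrays, but the differences were at most 0.07 (SE 0.08, n = 2 each, limma with Benjamini-Hochberg adjustment, adjusted p = 0.633 at day 7). In the other CD99 probe set these arrays lay below SaOS-2 arrays, by 4.60 at day 0, 4.17 at day 7 and 3.23 at day 14 on the log2 scale (adjusted p of 0.0024, 0.00224 and 0.00843). The study's methods state that real-time PCR verified CD99 expression in all profiled samples, before and during differentiation. That measurement is not used here, and each direction below is that of the labels. The osteoblast identity of the cells was checked with 8 markers that had a probe set, of which 7 passed the signal filter and SPP1 did not. Of the markers of other cells, 0 of 4 endothelial, 0 of 4 adipocyte, 1 of 4 leukocyte, 2 of 5 epithelial and 1 of 4 hepatocyte genes passed it. The summed hepatocyte signal was 328 to 1049 in the arrays labelled Sa/CD99 and 1021 to 1270 in SaOS-2 arrays, with ALB, APOA1 and TTR below the filter and SERPINA1 above it, and its part in the results was not tested. The summed epithelial signal was 624 to 1321 in the arrays labelled Sa/CD99 and 704 to 880 in SaOS-2 arrays.

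Values are log2 signals, as the authors deposited them, and a member was tested when its signal was above 100 (6.64 on the log2 scale) in more than 3 arrays and its spread was above the median of the array. IGFBP3, IGFBP4, IGFBP5, IGFBP6 and IGFBP7 passed, and 6644 genes were tested in all. IGF1 and IGFBP2 were too dim, and IGF1R and IGF2R varied too little, so they are described without a call. A gene was called when it changed by 1.5-fold or more with an adjusted p from limma of 0.05 or less. In these bulk samples, fewer cells that express a gene and less RNA per cell cannot be told apart.

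The bases just before the start sites of IGFBP3, IGFBP5 and IGFBP6, which were called lower in SaOS-2 cells by day 7, are shown first. Those of IGFBP4, which was called in no comparison, are shown beside them. The RefSeq (GRCh38.p14) promoter entries read here cover 8 of the 10 members, all but IGF2 and IGFBP7. IGFBP7 changed by -1.17 in SaOS-2 cells by day 7, without a call. Each line gives the 120 bases before the start, 5′ to 3′ on the strand of the gene, at chr7:45921273-45921392 (minus strand) for IGFBP3, chr2:216695550-216695669 (minus) for IGFBP5, chr12:53097547-53097666 (plus) for IGFBP6 and chr17:40443330-40443449 (plus) for IGFBP4. Capitals mark matches on either strand to TATAAA, the core of the TATA box, to CCAAT, the core of the CCAAT box, or to GGGCGG, the core of the GC box, and no matches overlapped.
IGFBP3: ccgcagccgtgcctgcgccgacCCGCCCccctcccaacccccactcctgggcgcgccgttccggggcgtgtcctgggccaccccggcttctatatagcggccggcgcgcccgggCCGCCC
IGFBP5: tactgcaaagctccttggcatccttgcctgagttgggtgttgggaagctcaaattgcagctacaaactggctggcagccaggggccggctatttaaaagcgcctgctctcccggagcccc
IGFBP6: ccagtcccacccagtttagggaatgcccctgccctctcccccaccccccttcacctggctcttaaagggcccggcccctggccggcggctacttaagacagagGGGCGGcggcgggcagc
IGFBP4: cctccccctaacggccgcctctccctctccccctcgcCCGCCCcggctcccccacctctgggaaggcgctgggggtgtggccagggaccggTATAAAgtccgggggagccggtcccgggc
GGGCGG was matched in IGFBP3, IGFBP6 and IGFBP4 and in 34% of 35116 promoters of this length, and not in IGFBP5. TATAAA was matched in IGFBP4, from 29 to 24 bases before the start, and in 5.63% of promoters. CCAAT was matched in none of these windows and in 20.4% of promoters. Only these exact strings were searched, so a window without a match can still hold a variant of the motif.

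IGFBP5 was the 1 member called between the lines. It is the binding protein most abundant in bone matrix. At day 0 its log2 signal was 7.66 in wt22 and 7.48 in wt36, against 8.25 and 8.32 in SaOS-2 arrays. At day 7 it was 7.45 and 7.34 in the clones, against 7.43 and 7.35 in SaOS-2 arrays. At day 14 it was 7.12 and 6.89 in the clones, against 7.73 and 7.57 in SaOS-2 arrays. The groups did not overlap at days 0 and 14, with both clones lower, and lay on each other at day 7.

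IGFBP5 was 1.64-fold lower in the arrays labelled Sa/CD99 at day 0 (log2 difference -0.72, SE 0.11, adjusted p = 0.018, limma) and 1.56-fold lower at day 14 (-0.64, SE 0.11, adjusted p = 0.0301). At day 7 the difference was 0.00 (95% confidence interval -0.26 to 0.26). Against day 0, IGFBP5 fell in SaOS-2 cells by 0.90 by day 7 (adjusted p = 0.000684) and by 0.64 by day 14 (adjusted p = 0.00462). In the arrays labelled Sa/CD99 the day 7 change was -0.18 (adjusted p = 0.25), and the day 14 change of -0.56 passed the test (adjusted p = 0.00639) but not the fold. The difference between lines changed by 0.72 between days 0 and 7 (SE 0.16, unadjusted p = 0.00162), which did not pass adjustment over all probe sets (adjusted p = 0.948). The day 0 call was lost without the array of wt36 at day 0 (adjusted p = 0.0772) or without either SaOS-2 array of that day (0.14 and 0.177). The day 14 call was lost without 7 of the 12 arrays, namely wt36 at day 14 and the 6 SaOS-2 arrays, at adjusted p values of 0.0686 to 0.276, and the SaOS-2 fall by day 14 was lost without SaOS-2 array 2 of day 14 (adjusted p = 0.0504). With only the 4 arrays of the day in the fit, the line differences had adjusted p values of 0.162 and 0.17. The other 5 IGFBP5 probe sets were dimmer and failed a filter, and the next brightest differed by -0.57, -0.18 and -0.32 at days 0, 7 and 14, with no call. At day 0 the 5 differed by -0.57 to -0.04, and at day 14 by -0.32 to 0.16, with 2 of them above 0. At day 7 their distance from the SaOS-2 mean was -0.34 to 0.14 in wt22 and -0.32 to -0.03 in wt36. By day 14 these 5 had changed from the clone's own day 0 array by -0.28 to 0.39 in wt22 and by -0.12 to 0.42 in wt36. In SaOS-2 arrays their means changed less than that of the representative probe set, by -0.41 to -0.16 by day 7 and by -0.41 to 0.08 by day 14. ALPL, the alkaline phosphatase of osteoblasts, was also lower in the arrays labelled Sa/CD99 at day 0 (log2 difference -0.82, adjusted p = 0.0298), the only call among 7 tested osteoblast markers between lines on any day, and its part in the IGFBP5 difference was not tested.

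**Figure D1:**
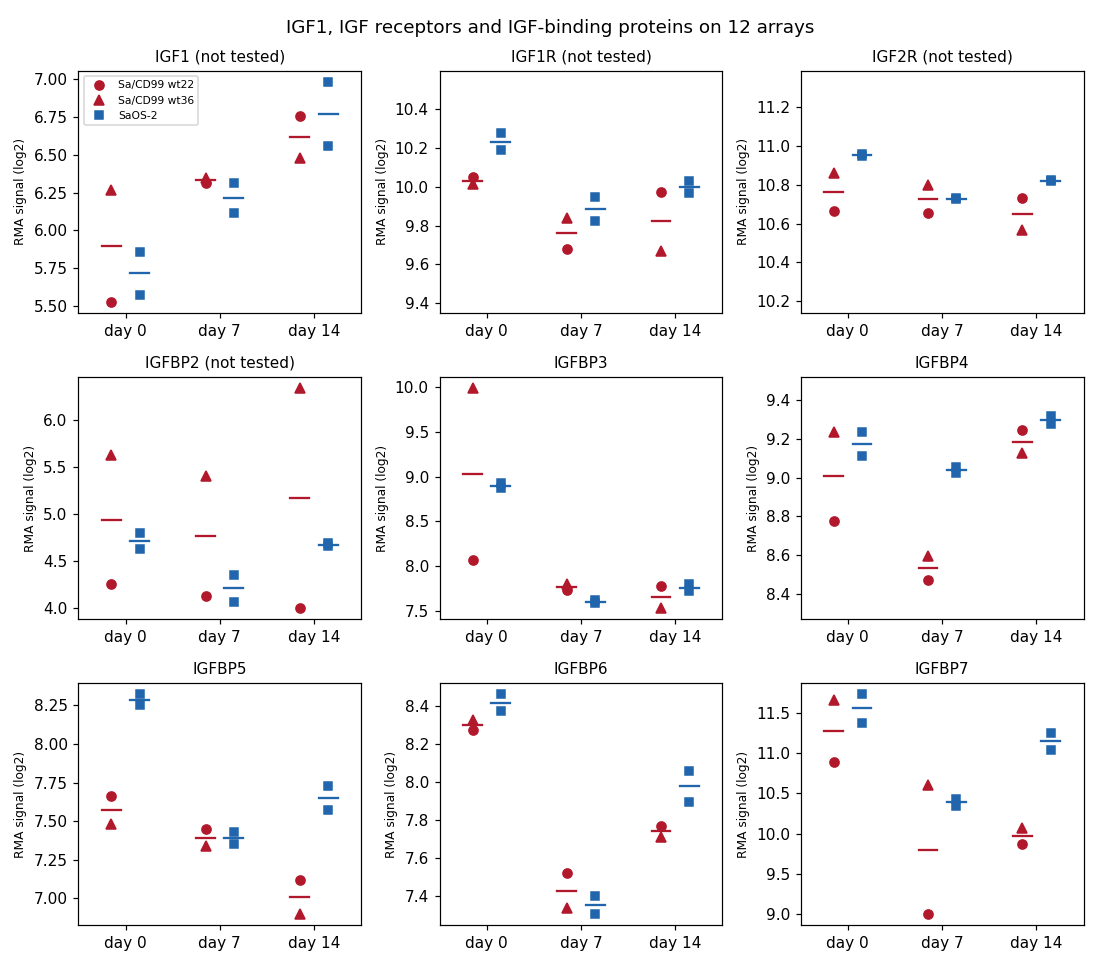
Log2 RMA signal (vertical axis) of the 9 measured members on each of the 12 arrays by day (horizontal axis), with a line at the mean of each group. Both clones lie below both SaOS-2 arrays for IGFBP5 at days 0 and 14, and clone wt36 lies above wt22 for IGFBP2 on all 3 days.

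IGFBP6, a binding protein that prefers IGF2, fell in both lines by day 7. Its log2 signal in the arrays labelled Sa/CD99 was 8.27 and 8.32 at day 0, 7.52 and 7.34 at day 7, and 7.77 and 7.71 at day 14, in the order wt22 and wt36. In SaOS-2 arrays it was 8.46 and 8.37, then 7.31 and 7.40, then 7.89 and 8.06 on the same days. All 4 arrays of day 7 lay below all others, and those of day 14 lay between days 7 and 0. The day 7 change was -0.87 in the arrays labelled Sa/CD99 (SE 0.10, 1.82-fold lower, adjusted p = 0.000473) and -1.06 in SaOS-2 arrays (SE 0.10, 2.09-fold lower, adjusted p = 0.000234). By day 14 the changes of -0.56 and -0.44 passed the test (adjusted p = 0.00449 and 0.0139) but not the fold. IGFBP6 differed between lines by -0.12, 0.08 and -0.24 at days 0, 7 and 14, with no call (adjusted p = 0.291 at day 14). Its 2 calls by day 7 held without any 1 of the 12 arrays and under all 9 other settings tried.

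IGFBP3, the main carrier of IGFs in blood, also fell in culture, but its level at day 0 split the clones. At day 0 its log2 signal was 8.07 in wt22 and 9.99 in wt36, against 8.93 and 8.87 in SaOS-2 arrays. At day 7 it was 7.73 and 7.80 in the clones, against 7.62 and 7.59 in SaOS-2 arrays, and at day 14 it was 7.78 and 7.53, against 7.80 and 7.72. Every array of days 7 and 14 was below every array of day 0, while at day 0 the SaOS-2 arrays lay between the clones.

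IGFBP3 fell by 1.30 in SaOS-2 cells by day 7 (SE 0.46, adjusted p = 0.0478) and by 1.38 in the arrays labelled Sa/CD99 by day 14 (SE 0.46, adjusted p = 0.0414). The day 7 change of -1.27 in the arrays labelled Sa/CD99 (adjusted p = 0.0578) and the day 14 change of -1.14 in SaOS-2 arrays (adjusted p = 0.0837) were not called, although the fit with the clone or array number as a block, which pairs the arrays of a clone across days, called the first (adjusted p = 0.0423). Set against its own day 0 array, wt36 changed by -2.20 and -2.47 at days 7 and 14, and wt22 by -0.34 and -0.29. Without the wt36 array of day 0, the day 14 change of the arrays labelled Sa/CD99 was -0.42, under the fold, and that call held only without the wt22 array of day 0. It was lost without each of the other 11 arrays, whose adjusted p values were up to 0.125. The SaOS-2 call was lost without 10 of the 12 arrays, all but those of the clones at day 0 (adjusted p up to 0.158). Of 9 other settings, the day 14 call was kept under 4 and the SaOS-2 call under 6. With only the 6 SaOS-2 arrays in the fit, their day 14 change was called (adjusted p = 4.3e-06, limma). Array weights by line also called it (adjusted p = 0.000206). At day 0 the pair SD was 0.04 in SaOS-2 arrays and 1.36 in the arrays labelled Sa/CD99, and the main fit shared its estimate of spread over both lines. The second IGFBP3 probe set gave -1.14 and -1.37 in the arrays labelled Sa/CD99 and -1.22 and -1.28 in SaOS-2 arrays, and of these the day 14 change in the arrays labelled Sa/CD99 was called (adjusted p = 0.0446). Between lines the IGFBP3 differences were 0.13, 0.16 and -0.11 at days 0, 7 and 14 (SE 0.46 each), with intervals that reached from -1.14 to 1.20.

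IGFBP7, a binding protein of low affinity for IGFs found in the matrix of many tissues, fell in the arrays labelled Sa/CD99. Its log2 signal at days 0, 7 and 14 was 10.89, 9.0 and 9.88 in wt22 and 11.67, 10.61 and 10.08 in wt36. In SaOS-2 arrays it was 11.38 and 11.73 at day 0, 10.35 and 10.43 at day 7, and 11.05 and 11.26 at day 14. Each clone was below its own day 0 array on both later days, and at day 14 both clones were below both SaOS-2 arrays.

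The IGFBP7 change in the arrays labelled Sa/CD99 was -1.47 by day 7 (SE 0.44, 2.78-fold lower, adjusted p = 0.0283) and -1.30 by day 14 (2.46-fold lower, adjusted p = 0.0426). In SaOS-2 arrays the changes were -1.17 (adjusted p = 0.0582) and -0.41 (adjusted p = 0.487), without a call. The fit with the clone or array number as a block called the SaOS-2 change by day 7 (SE 0.27, adjusted p = 0.00923, limma). Parental array numbers did not correlate across days, so for SaOS-2 arrays this is not a paired comparison. The SE is shared with the clones, whose difference the block takes out. That change was also called by limma with only the 6 SaOS-2 arrays (adjusted p = 7.2e-05) and with array weights by line (adjusted p = 0.000217). Between lines IGFBP7 differed by -0.28, -0.59 and -1.18 at days 0, 7 and 14, and the last did not pass (SE 0.44, 95% confidence interval -2.16 to -0.19, adjusted p = 0.219). The day 7 call was lost without the wt36 array of day 0 (adjusted p = 0.156) or the wt22 array of day 7 (adjusted p = 0.129), and also with array weights by line (adjusted p = 0.0653) or with only the 6 arrays of that line (adjusted p = 0.123). The day 14 call was kept without the wt22 array of day 0 or either clone's array of day 7 and was lost without each of the other 9, with adjusted p values of 0.0609 to 0.189, and it was kept under 4 of 9 other settings. Without either clone's day 7 array the difference of -1.18 at day 14 was called (adjusted p = 0.0467), as was the SaOS-2 fall by day 7 (adjusted p = 0.0062). The second tested IGFBP7 probe set changed by -1.27 and -1.24 in the arrays labelled Sa/CD99, with calls on both days (adjusted p = 0.0288 and 0.0304), and by -0.94 and -0.63 in SaOS-2 arrays, with none.

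IGFBP4, a binding protein that mostly restrains IGF action and is cut by the protease PAPPA, was called in no comparison. Its log2 signal was 8.78 in wt22 and 9.24 in wt36 at day 0, against 9.24 and 9.11 in SaOS-2 arrays. At day 7 it was 8.47 and 8.60 in the clones, against 9.05 and 9.03, and at day 14 it was 9.24 and 9.12, against 9.28 and 9.32. The day 7 arrays of the clones were the lowest 2 of the 12. The day 7 change in the arrays labelled Sa/CD99 was -0.47 (adjusted p = 0.0291, 1.39-fold), under the fold, and the difference from SaOS-2 at day 7 was -0.51 (SE 0.14, adjusted p = 0.0956). Without the wt22 array of day 0 the first of these was -0.70 and was called (adjusted p = 0.00329).

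**Figure D2:**
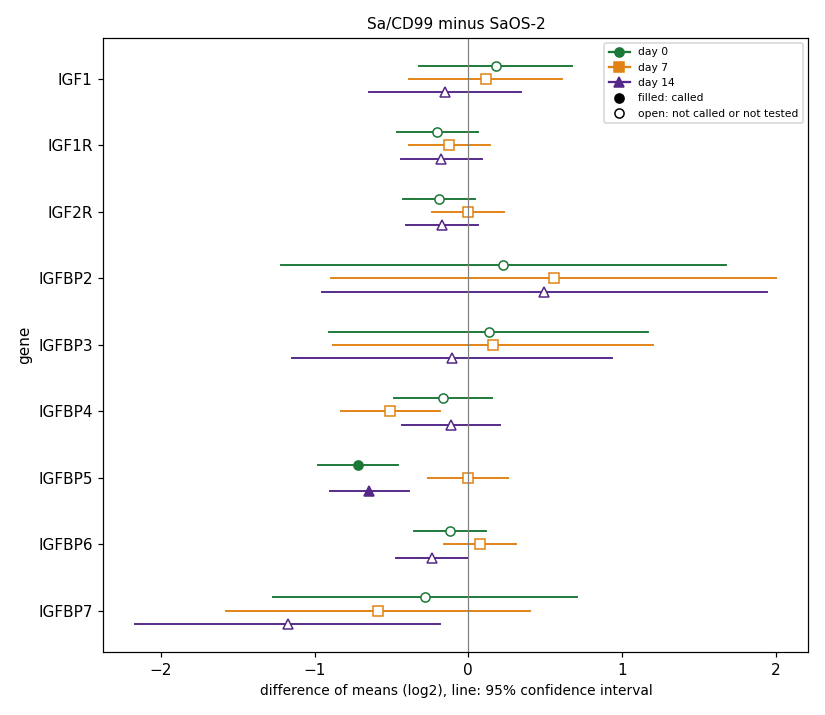
Difference of the arrays labelled Sa/CD99 minus SaOS-2 (horizontal axis, log2) for the 9 measured members (vertical axis) at days 0, 7 and 14, with lines for 95% confidence intervals and filled points for calls. Only IGFBP5 has filled points, at -0.72 for day 0 and -0.64 for day 14.

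Counted over the 5 members tested, the arrays labelled Sa/CD99 had 1 lower member at day 0 and 1 at day 14, IGFBP5 on both days, against a background of 0.978% and 1.48% of all genes tested. At day 7 the count was 0 by limma, against 1.28% of all genes lower, and 1 member, IGFBP4, had an unadjusted p under 0.05, as did 21.4% of all genes. The median log2 difference of the 5 members was -0.16, 0.00 and -0.24 at days 0, 7 and 14, and that of all genes tested was 0.01, 0.02 and 0.00. By day 7, 2 members fell in the arrays labelled Sa/CD99 (IGFBP6 and IGFBP7), against 7.59% of all genes, and 3 in SaOS-2 arrays (IGFBP3, IGFBP5 and IGFBP6), against 9.44%. By day 14, 2 fell in the arrays labelled Sa/CD99 (IGFBP3 and IGFBP7), against 12.3% of all genes, and 1 in SaOS-2 arrays (IGFBP5), against 7.31%. No member was called higher in these 4 comparisons, where 8.22% and 7.42% of all genes were by days 7 and 14 in the arrays labelled Sa/CD99 and 10.9% and 7.42% in SaOS-2 arrays. Of 7 tested osteoblast markers, RUNX2 was called by day 7 (0.67) and ALPL by day 14 (0.78) in the arrays labelled Sa/CD99. SP7 was called in SaOS-2 arrays by day 7 (-1.19), and no other marker was. Without a call, SaOS-2 arrays read 11.69 and 11.72 for RUNX2 at day 0 and 12.28 and 12.29 at day 7. For ALPL they read 11.56 and 11.58 at day 0 and 12.13 and 11.99 at day 14. IBSP, also not called, read 7.37, 10.67 and 10.05 in wt22 and 3.26, 6.44 and 8.12 in wt36 at days 0, 7 and 14. In SaOS-2 arrays it was 6.70 and 6.84, then 8.44 and 8.55, then 9.41 and 9.44. The part of these markers in the changes of the members was not tested. The median change of the 5 members was -0.87 and -0.56 by days 7 and 14 in the arrays labelled Sa/CD99 and -1.06 and -0.44 in SaOS-2 arrays, beside medians of -0.04 to -0.02 over all genes tested. The comparisons of days 7 and 14 share their day 0 arrays.

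Whether the lines changed differently over the days was tested by the interaction of line and day. Neither interaction called a member or any gene (0% of all genes tested on both days), while 1 and 0 of the 5 members and 249 and 223 of the 6644 genes had an unadjusted p under 0.05 at days 7 and 14. A different response of the lines is thus not shown for any member, although calls fell in different lines.

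**Figure D3:**
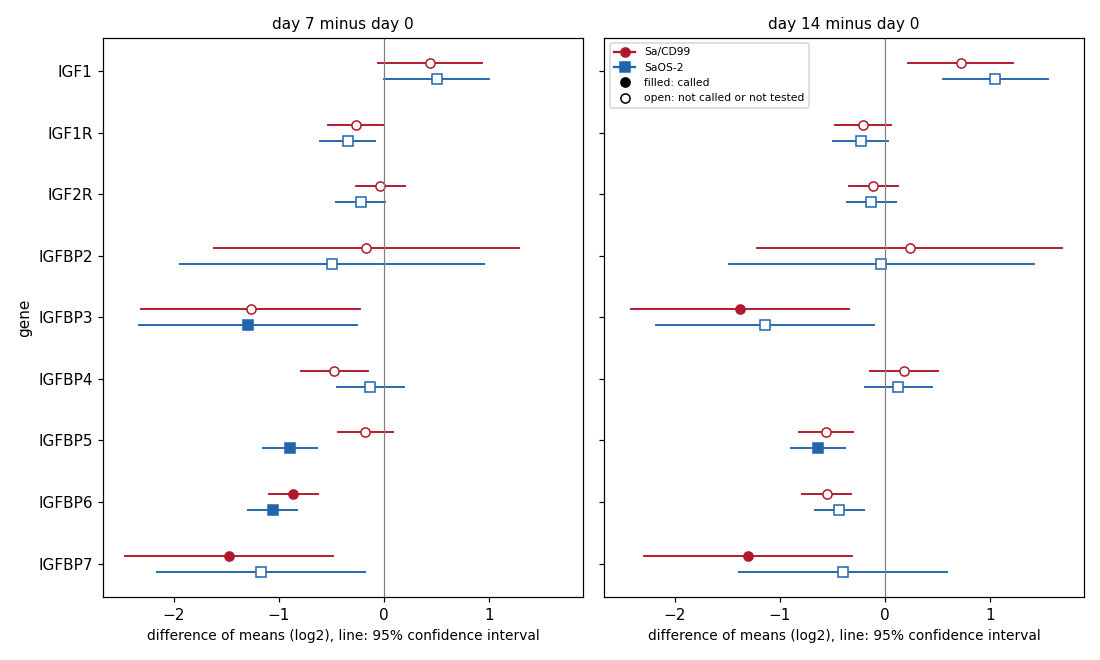
Change from day 0 to day 7 (left) and to day 14 (right) in log2 units (horizontal axes) for the 9 measured members (vertical axis) in the arrays labelled Sa/CD99 and in SaOS-2 arrays, with lines for 95% confidence intervals and filled points for calls. IGFBP6 is filled for both lines at day 7, at -0.87 and -1.06, and no filled point lies to the right of 0.

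The ligand IGF1 was dim in all arrays and had higher values on the later days in both lines. Its log2 signal at days 0, 7 and 14 was 5.53, 6.32 and 6.75 in wt22 and 6.27, 6.34 and 6.48 in wt36. In SaOS-2 arrays it was 5.86 and 5.58 at day 0, 6.32 and 6.12 at day 7, and 6.98 and 6.55 at day 14. Only wt22 and SaOS-2 array 1 at day 14 were above the signal limit of 6.64, and the level on all other arrays was below it.

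The day 14 difference of IGF1 from day 0 was 0.72 in the arrays labelled Sa/CD99 (95% confidence interval 0.22 to 1.21) and 1.05 in SaOS-2 arrays (0.55 to 1.54), in a fit of all 54613 probe sets other than controls. In the arrays labelled Sa/CD99 the mean rested mostly on wt22, which differed by 1.22 from its own day 0 array, against 0.21 in wt36, and it moved to between 0.35 and 1.09 with 1 array left out. Of the 4 other IGF1 probe sets, 3 had day 14 differences of 0.51 to 1.10 in the arrays labelled Sa/CD99 and 1.28 to 2.37 in SaOS-2 arrays. The line differences of the representative probe set were 0.18, 0.11 and -0.15 at days 0, 7 and 14, each with an interval that held 0.

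IGF1R, the signalling receptor of both ligands, was bright and nearly level. Its log2 signal was 10.05 and 10.02 in the clones at day 0, against 10.19 and 10.28 in SaOS-2 arrays. At day 7 it was 9.68 and 9.84, against 9.95 and 9.82, and at day 14 it was 9.97 and 9.67, against 9.97 and 10.03. The clones lay below SaOS-2 at day 0 and overlapped with it on the later days. The line differences were -0.20, -0.12 and -0.18 (SE 0.12), and the day 7 changes were -0.27 in the arrays labelled Sa/CD99 and -0.35 in SaOS-2 arrays. Of its 4 other probe sets, 2 were tested and neither was called in any comparison, with line differences of -0.44 to -0.08.

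IGF2R, the uptake receptor of IGF2, was similarly even. Its log2 signal was 10.66 and 10.86 in the clones at day 0, 10.65 and 10.80 at day 7, and 10.73 and 10.57 at day 14. In SaOS-2 arrays it was 10.95 and 10.96, then 10.73 and 10.73, then 10.82 and 10.82. The 2 clones were below SaOS-2 at days 0 and 14 and on either side of it at day 7. The line differences were -0.19, 0.00 and -0.17 (SE 0.11), all with intervals that held 0.

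IGFBP2 was below the signal limit on all arrays and differed between the clones. IGFBP2 is a binding protein abundant in fetal tissue and in many tumours. Its log2 signal at days 0, 7 and 14 was 5.62, 5.40 and 6.34 in wt36 and 4.25, 4.13 and 4.00 in wt22. SaOS-2 arrays read 4.62 and 4.79, then 4.07 and 4.35, then 4.65 and 4.69, so that wt36 was above every SaOS-2 array and wt22 was below all but the day 7 array 1. The line differences of 0.23, 0.56 and 0.49 (SE 0.66) had intervals that held 0.

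The clones were compared over the 3 days, wt36 minus wt22, in a fit with a mean per group and a clone term. The 3 arrays of a clone were the same transfected line on different days and not independent replicates. The estimate of spread was shared with the SaOS-2 arrays. IGFBP7 was higher in wt36, by 0.86 (SE 0.22, 1.82-fold, adjusted p = 0.0218, limma), at 11.67, 10.61 and 10.08 in wt36 against 10.89, 9.0 and 9.88 in wt22 at days 0, 7 and 14. It was the only call of the 5 members tested, against 3% of all genes tested that were higher in wt36. The gap was 0.78, 1.61 and 0.20 on the 3 days, and the call was lost without either clone's array of day 7, at an adjusted p of 0.107 in each case, and with array weights by line (adjusted p = 0.128). The second IGFBP7 probe set was called too (0.74, adjusted p = 0.0262), with gaps of 1.05, 1.20 and -0.04 on the 3 days. IGFBP2 was not tested for its low signal, and its difference of 1.66 (SE 0.17, 95% confidence interval 1.28 to 2.04) was the largest of the 9 measured members. IGFBP3 differed by 0.58 (adjusted p = 0.255), with a gap of 1.92 at day 0 and of 0.07 and -0.25 later. IGFBP4, IGFBP5 and IGFBP6 differed by 0.15, -0.17 and -0.06, without a call (adjusted p from 0.13 to 0.634). Of 7 tested osteoblast markers, 3 were lower in wt36 and 0 higher, beside 3.72% of all genes that were lower, with IBSP at -3.42, COL1A2 at -2.33 and SP7 at -0.64 (adjusted p = 0.000291, 0.00313 and 0.00186). ALPL, not called, read 10.85, 11.39 and 11.77 in wt36 against 10.66, 11.28 and 11.30 in wt22 at days 0, 7 and 14. The markers' part in the differences of the binding proteins was not tested.

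**Figure D4:**
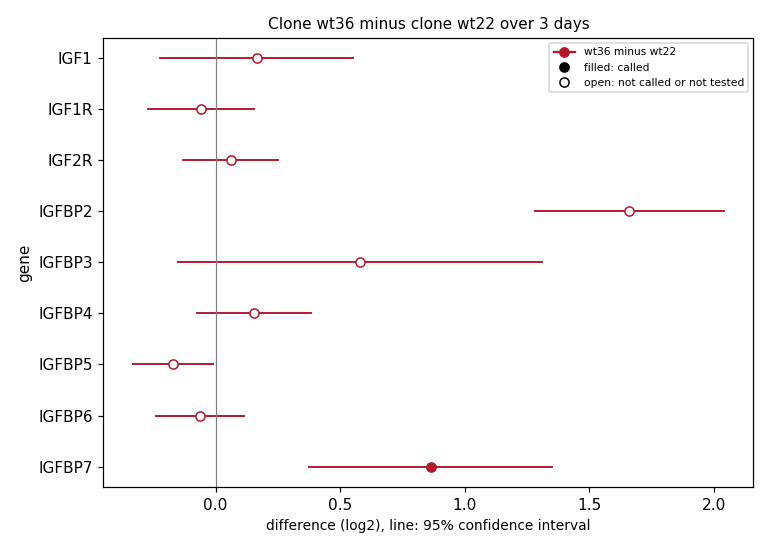
Difference of clone wt36 minus clone wt22 over the 3 days (horizontal axis, log2) for the 9 measured members (vertical axis), with lines for 95% confidence intervals and a filled point for a call. IGFBP2, at 1.66, lies farthest to the right but was not tested, and IGFBP7, at 0.86, is the only filled point.

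Other genes of the IGF system were read from 5 lists, and none of their 27 tested genes was called between the lines on any day by limma, beside 1.16%, 1.84% and 1.66% of all genes tested. At an unadjusted p under 0.05 there were 2, 6 and 5 of the 27 at days 0, 7 and 14, beside 11.5%, 21.4% and 17.4% of all genes. The study, working with all probe sets, names GRB10 at day 7 and HMGA2 at day 14 in its networks of genes differing between the lines. From its genes differing between the lines it also names SOS1 as a predicted microRNA target. It lists the member IGFBP5 at day 14 as a target both predicted for a microRNA and correlated with it. Here a single probe set stood for each gene. GRB10 and SOS1 were not called between the lines, HMGA2 failed the signal filter, and IGFBP5 was called at day 14. The counts of the lists in the day comparisons are to be read against the shares of all genes given above, 7.42% to 10.9% higher and 7.31% to 12.3% lower. Of 8 tested genes for proteases of the binding proteins and their inhibitors, 2 rose and 2 fell by day 7 in the arrays labelled Sa/CD99, and 3 rose and 1 fell in SaOS-2 arrays. PLAU, the urokinase that activates plasminogen, rose by 1.78 in the arrays labelled Sa/CD99 and by 1.64 in SaOS-2 arrays, and MMP2, a gelatinase, rose by 0.84 in the arrays labelled Sa/CD99 and by 0.78 in SaOS-2 arrays. STC2, which inhibits the pappalysins, fell by 1.42 in the arrays labelled Sa/CD99 and by 1.01 in SaOS-2 arrays. PAPPA2, a pappalysin that cuts IGFBP3 and IGFBP5, fell by 0.85 in the arrays labelled Sa/CD99 (adjusted p = 0.0326), and ADAM12 rose by 0.65 in SaOS-2 arrays (adjusted p = 0.0131). By day 14, 2 of the 8 rose and 3 fell in the arrays labelled Sa/CD99, and 2 rose and 2 fell in SaOS-2 arrays. PAPPA, the protease of IGFBP4, was itself too dim to be tested, at 4.95 to 5.44 on the log2 scale. The list median was 0.09 and 0.12 by days 7 and 14 in the arrays labelled Sa/CD99, and 0.03 and 0.13 in SaOS-2 arrays.

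Of 9 tested genes for receptor relatives, substrates and adaptors, IRS2, a docking protein of the activated receptor, rose by day 7 by 0.78 in the arrays labelled Sa/CD99 and by 1.01 in SaOS-2 arrays. SOS1, an exchange factor for RAS, was the other riser by day 7 in SaOS-2 arrays (0.62). By day 14 NEDD4, a ubiquitin ligase, fell by 1.40 in the arrays labelled Sa/CD99 and by 0.76 in SaOS-2 arrays, where PIK3R1, the regulatory subunit of PI3 kinase, also fell, by 0.82, and IRS2 rose by 0.76 (adjusted p = 0.0206). The list median was 0.24 and -0.30 by days 7 and 14 in the arrays labelled Sa/CD99 and 0.27 and -0.24 in SaOS-2 arrays.

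Of 5 tested genes for other IGF binders and related secreted proteins, 2 fell by day 7 in the arrays labelled Sa/CD99, beside 7.59% of all genes, and 3 in SaOS-2 arrays, beside 9.44%. By day 14, 3 fell in the arrays labelled Sa/CD99, beside 12.3%, and 1 in SaOS-2 arrays, beside 7.31%, and 0 rose in the 4 comparisons. CRIM1, a transmembrane protein with an IGFBP domain, fell by 1.64 and 1.28 in the arrays labelled Sa/CD99 by days 7 and 14 and by 1.39 and 1.16 in SaOS-2 arrays. CCN2, a matricellular protein, fell by 1.07 by day 7 in the arrays labelled Sa/CD99 and by 0.89 in SaOS-2 arrays. CRIM1 and CCN3 were also higher in clone wt36, by 0.60 and 1.24, as was the protease HTRA1, by 0.84.

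Among 3 tested genes that bind IGF2 mRNA or regulate its locus, PLAGL1, an imprinted zinc finger factor, fell by day 7 by 0.79 in the arrays labelled Sa/CD99 and by 0.60 in SaOS-2 arrays. IGF2BP2, an RNA-binding protein, rose by 0.62 by day 14 in the arrays labelled Sa/CD99. Of 2 tested genes of growth hormone signalling, GHR, the growth hormone receptor, rose by 1.32 and 1.26 by days 7 and 14 in the arrays labelled Sa/CD99 and by 1.05 and 0.96 in SaOS-2 arrays (adjusted p = 0.0094, 0.0117, 0.0214 and 0.0362).

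For each tested member, the genes with the most similar course over the 12 arrays were found by the root mean square difference of their centred log2 values. IGFBP6 lay closest to EPHA2, an ephrin receptor, at 0.09, and to TK1, a thymidine kinase, at 0.12, where the median over all genes tested was 0.48. IGFBP5 lay closest to WSB1 and APAF1, both at 0.18 (median 0.48). IGFBP3 lay closest to TLN2 at 0.22 and ALDOC at 0.26 (median 0.76), and IGFBP4 to ATG9A and ILKAP, both at 0.13 (median 0.38). IGFBP7 had the largest distances, with ACKR3 at 0.29 and CD44 at 0.32 (median 0.81). Its own SD over the arrays, 0.77, was also the largest, and such distances grow with that SD, which was 0.27 for IGFBP4. These distances describe the arrays and carry no test.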

How the data were processed

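Expression was measured in total RNA on 12 Affymetrix HG-U133 Plus 2.0 arrays. The authors deposited log2 values of 54675 probe sets, background-corrected, quantile-normalized and summarised by RMA with affy (version not given in the sources read here). Their number, 2 a group, limits precision. Probe sets at or below a signal of 100 in 9 or more arrays, or an interquartile range up to the median, were left out, as were 62 controls. Of 54613 others, 12894 were tested. Names came from the platform annotation, updated to GRCh38.p14 by gene ID (41037 of 41091 probe sets with 1 gene matched), and 1801 probe sets naming several genes were not used for genes.

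With limma 3.58.1 (R 4.3.3, lmFit and eBayes), group means were fitted over all 12 arrays for 10 comparisons, with Benjamini-Hochberg adjustment over all probe sets tested. Members that failed a filter were read from a fit of all 54613 probe sets, without a call. The fit was tested on simulated data. The text names all members, up to 4 called genes a list and comparison, and the 2 most similar genes of each tested member. The members and lists were chosen with earlier results of these data known.

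Deviations of arrays with the same clone number correlated across days (r = 0.58, 0.32 and 0.63), so the number pairs the clones. Parental numbers did not (r = -0.04, 0.24 and -0.05). Alternatives were other filters, annotations, normalizations, probe-set summaries, weights and prior variances, fewer arrays, a replicate block, and each array left out. Clone pairs differed with an SD of 0.39 to 0.42, against 0.12 to 0.14 for parental pairs.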

Additional observations from a re-analysis of the deposited data

How the results depend on the processing

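Counts of called members that changed by more than 1.5-fold, or between 0 and another count, are given first, each beside the main count. With no filter, where all 9 measured members were tested, day 14 gave 0 instead of 2 in the arrays labelled Sa/CD99 and 2 instead of 1 in SaOS-2 arrays, and the clones gave 2 instead of 1. The signal filter alone gave 0 instead of 2 by day 14 in the arrays labelled Sa/CD99. Quantile normalization of the tested probe sets gave 0 by day 14 in both lines, and IGFBP5 at day 7 then differed between lines by 0.056 instead of 0.00 (adjusted p = 0.773). With the median over the probe sets of a gene, the line comparisons gave 0 at days 0 and 14 instead of 1, since IGFBP5 then failed the signal filter, and SaOS-2 arrays gave 1 instead of 3 by day 7 and 0 instead of 1 by day 14. Array weights by line gave 1 instead of 2 and 0 instead of 2 by days 7 and 14 in the arrays labelled Sa/CD99, 2 instead of 1 by day 14 in SaOS-2 arrays, and 0 between clones. Fits of 1 day gave 0 at days 0 and 14, and fits of 1 line gave 1 and 0 by days 7 and 14 in the arrays labelled Sa/CD99 and 2 by day 14 in SaOS-2 arrays. Smaller changes fell on the SaOS-2 count by day 7. There IGFBP3 lost its call with no filter and with the signal filter alone, and IGFBP7 gained a call with array weights by line and in the fit of SaOS-2 arrays alone. The cause of these changes was otherwise not tested. With the replicate block the counts were 3 and 2 by days 7 and 14 in the arrays labelled Sa/CD99, 4 and 1 in SaOS-2 arrays and 0 for both interactions, where IGFBP3 and IGFBP7 were added by day 7, and no other call changed.

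Leaving out 1 array at a time gave 0 to 2 members between lines at day 0, 0 at day 7 and 0 to 2 at day 14. It gave 1 to 4 and 0 to 2 by days 7 and 14 in the arrays labelled Sa/CD99, 2 to 3 and 0 to 2 in SaOS-2 arrays, 0 for the interactions and 0 to 1 between clones. An arm of 1 array is then assumed to vary like the others. Of the values of the 5 tested members with an array left out, 22 turned sign, none of them called in the fit of all arrays. Members without a test also turned sign, in 34 values, among them the line differences of IGF1 at day 0 (-0.19 to 0.55) and of IGFBP2 at days 0, 7 and 14 (-0.46 to 0.91, -0.08 to 1.19 and -0.68 to 1.66). Between lines these ranged from -0.83 to 1.09 for IGFBP3, -0.39 to 0.064 for IGFBP4 and -0.67 to 0.11 for IGFBP7 at day 0. At day 7 they were -0.054 to 0.054 for IGFBP5, -0.014 to 0.17 for IGFBP6 and -1.39 to 0.22 for IGFBP7, and at day 14 -0.23 to 0.021 for IGFBP3. The day 14 change of IGFBP4 in the arrays labelled Sa/CD99 was -0.052 to 0.41, and the clone difference of IGFBP3 -0.094 to 0.99. Interactions at day 7 were -0.93 to 0.99 for IGFBP3 and -1.11 to 0.50 for IGFBP7, and at day 14 -1.20 to 0.72 for IGFBP3, -0.18 to 0.28 for IGFBP4 and -0.039 to 0.19 for IGFBP5. Without the wt22 array of day 0, IGFBP3 was called higher in the arrays labelled Sa/CD99 at day 0 (adjusted p = 0.0094).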
